A study of Mus musculus with 4 samples.

Results

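Heparan sulfate is a sulfated sugar chain carried by proteoglycans at the cell surface and in the extracellular matrix, and 31 mouse genes for the enzymes that build and edit it were examined in lymphatic endothelial cells (LECs). They were chosen by name, as the enzymes of the linker, of chain elongation, of sulfation and of extracellular trimming, and all 31 were found by their Ensembl gene IDs among the 55385 genes of the deposited table. All 31 also had a mean of at least 10 normalized counts and belong to the 19479 genes tested. LECs were sorted as CD45-, PDPN+, CD31+ cells at E13.5 from the trunk periphery, without limbs, tail and inner organs and, by the study's methods, without the part of the head above the tongue. There were 4 libraries, each from the pooled cells of 8 to 10 embryos. The 2 libraries labeled KO came from Osr1 GCE/GCE embryos, in which both copies of Osr1, a transcription factor gene of mesenchymal cells, carry a knock-in of eGFP-CreERT2 in all cells of the embryo. The 2 control libraries are labeled WT, while the study describes its controls as Osr1 +/+ and Osr1 GCE/+ embryos, so that some control embryos may carry the same allele on 1 copy. The comparison addresses how LECs differ when the surrounding Osr1+ mesenchyme lacks Osr1.

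Heparan sulfate synthesis starts on a serine of a core protein with a short linker of xylose, galactose and glucuronic acid. EXT enzymes then add alternating glucuronic acid and N-acetylglucosamine, and the chain is modified by N-deacetylation and N-sulfation, epimerization of glucuronic acid to iduronic acid, and 2-O-, 6-O- and 3-O-sulfation. Outside the cell, SULF enzymes remove 6-O-sulfates and heparanase cuts the chain. The pattern of sulfates sets which growth factors and chemokines bind, and in lymphatic endothelium heparan sulfate is known to bind VEGF-C and CCL21.

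The targeted gene went against its label. Osr1 had 168 and 303 normalized counts in the libraries labeled KO, against 32.8 and 30.4 in the control libraries (log2 fold change 2.80, adjusted p = 0.0262, limma). Which part of the Osr1 transcript the GCE allele keeps was not examined here, so these reads do not check the labels, and the libraries are called "labeled KO" throughout. The sorted surface markers were present in every library. Pdpn had 4936 and 5609 normalized counts in the libraries labeled KO, against 3318 and 3564 in control libraries, and Pecam1, which encodes CD31, had 28393 and 25400, against 23596 and 22279. The libraries held 31586765 to 53438492 reads in genes, and log2 values correlated at 0.989 and 0.990 within groups and at 0.982 to 0.985 between groups (Pearson's r over genes).

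Transcripts of all 31 genes were measured in the libraries of sorted E13.5 LECs, which also held transcripts of other cell types (given with the marker genes). TPM, which scale each gene by its exon length and each library by its sum, allow levels of different genes to be compared, and 19 of the 31 genes averaged over 10 TPM, 9 averaged between 1 and 10, and Ndst4, Hs3st5 and Hs3st2 averaged 0.531, 0.918 and 0.450. Sulf2 was the most abundant, at a mean of 162 TPM over the 4 libraries. Hs6st1 followed at 92.2, Ext1 at 87.4, Ndst1 at 74.3, Extl3 at 67.9 and Ext2 at 48.5. Each family was thus dominated by 1 or a few genes. Ndst1 made up 70.1 to 77.4 TPM of an NDST sum of 93.2 to 105 TPM, and Hs6st1 made up 86.1% to 91.7% of the transcripts of its family in every library.

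**Figure D1:**
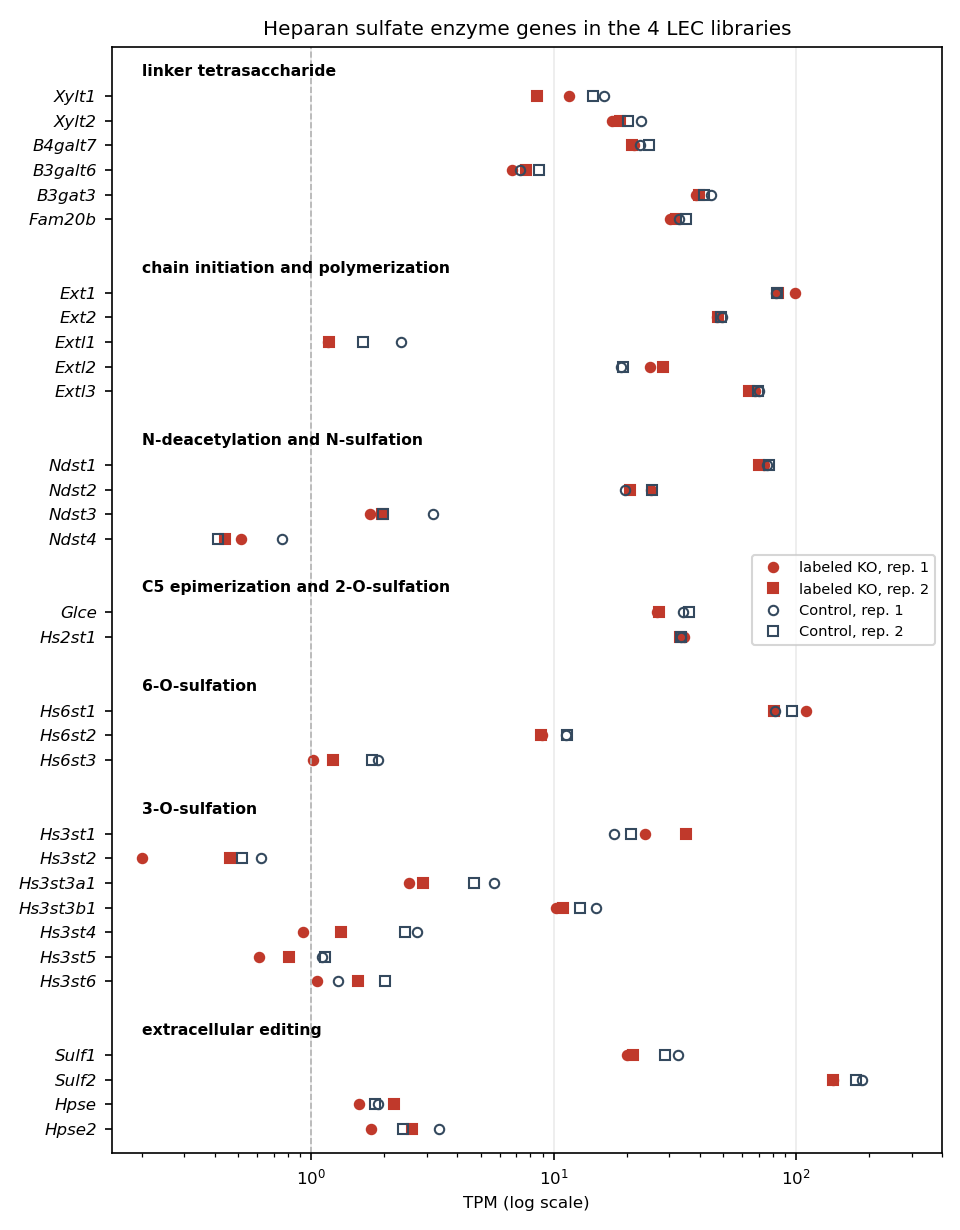
Level of each of the 31 genes in TPM (log scale), grouped by step of the pathway, with 1 point per library; filled red symbols are the 2 libraries labeled KO and open blue symbols the 2 control libraries, and the dashed line marks 1 TPM. The points of Ext1, Ext2, Extl3 and the sulfotransferase gene Ndst1 lie close together on this scale, although their groups do not overlap in TPM. Those of Sulf1, Extl2, Hs3st3a1 and Hs3st4 lie further apart by group.

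Between the groups 1 of the 31 genes, Sulf1, passed the test as lower in the libraries labeled KO, and none passed as higher. To be called, a gene had to differ by 0.3 or more on the log2 scale in either direction, with a Benjamini-Hochberg adjusted p under 0.05 over all tested genes and a mean over 1 TPM. The 3 genes below that level could not meet this rule. The share called lower was 3.23% of the enzyme genes, against 1.75% of all tested genes called lower and 1.13% called higher, so that a single call does not set these genes apart. Over all tested genes 341 were called lower and 221 higher, against 232 and 237 with TMM scaling and 480 and 197 with scaling by library totals. Of the 31 genes, 8 had an unadjusted p under 0.05 as lower (25.8%, against 13.0% of all tested genes) and 2 as higher (6.45%, against 8.41%). The normalized counts of both libraries labeled KO lay below those of both controls for 14 genes (45.2%, against 28.9% of all tested genes) and above for 4 (12.9%, against 24.7%), and the groups overlapped for 13. The median log2 fold change was -0.18 over the enzyme genes and -0.02 over all tested genes. The fold was negative for 23 enzyme genes (74.2%, against 52.8% of all tested genes). Each group holds 2 libraries, so an exact permutation test for 1 gene could not give a two-sided p below 0.333.

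**Figure D2:**
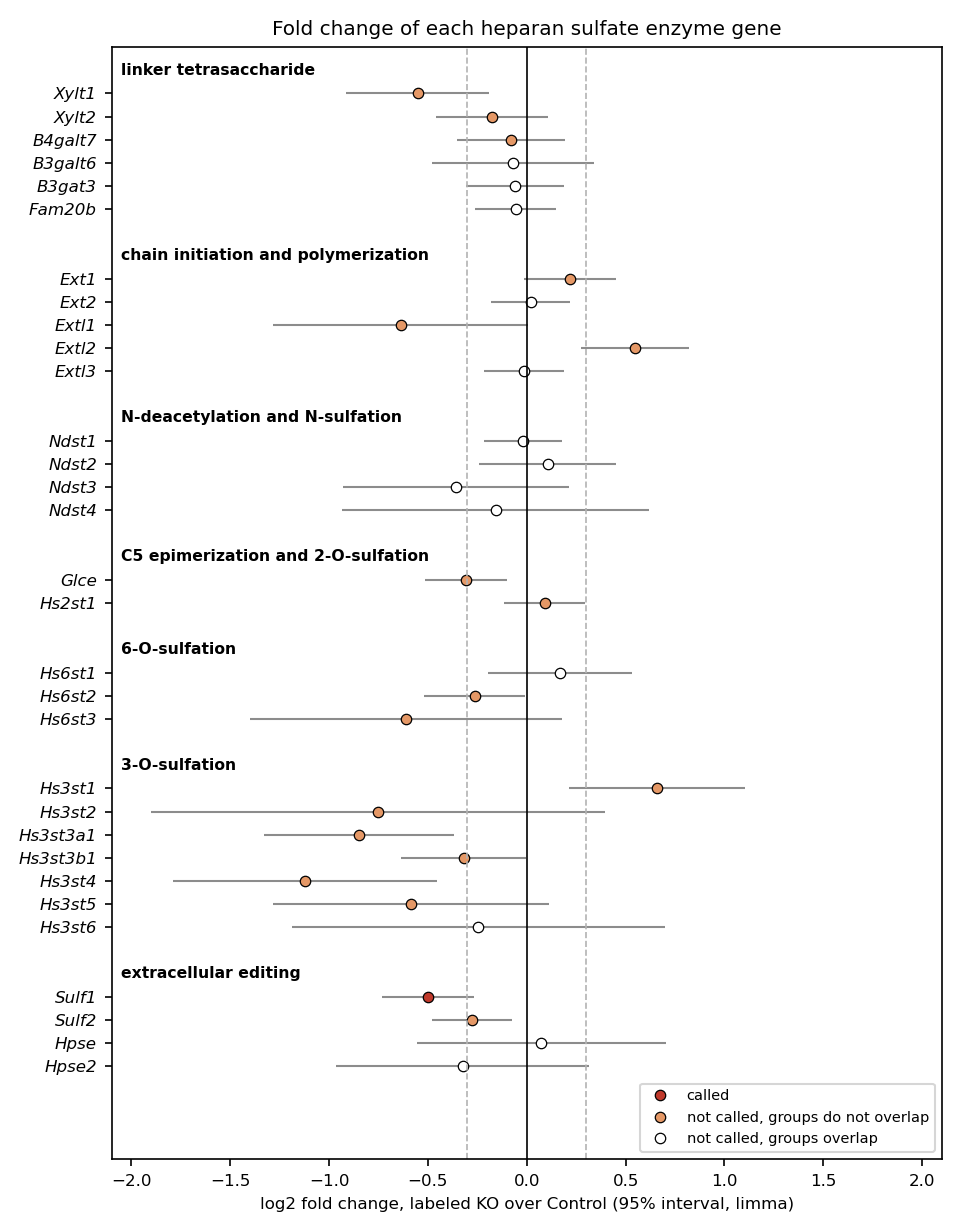
Log2 fold change of each gene, libraries labeled KO over control, with its 95% interval from limma; dashed lines mark 0.3 in each direction, the red point is the called gene, orange points are genes whose groups do not overlap and white points genes whose groups do. Sulf1 is the only called gene, Extl2 and Hs3st1 have intervals above 0, and the widest intervals belong to the low genes of the sulfotransferase families.

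The changes were smallest where the genes were most abundant. The 10 genes with means over 30 TPM had log2 fold changes of -0.31 to 0.22, with standard errors of 0.086 to 0.155. The 11 genes with means of 5 TPM or less had log2 fold changes of -1.12 to 0.07, with standard errors of 0.211 to 0.503. Of these 11, 10 were negative, against 59.2% of all tested genes of that level. Over 30 TPM the median log2 fold change was -0.02 for the enzyme genes, against 0.05 for all tested genes of that level, and at 5 TPM or less it was -0.59, against -0.14. These level classes were chosen after the values were seen.

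The linker is assembled by xylosyltransferases, which add xylose to the core protein, and by the galactosyl- and glucuronosyltransferases that follow. All 6 linker genes had negative log2 fold changes (against 52.8% of all tested genes), with a median of -0.08. The folds of B3galt6 and B3gat3 changed sign with 1 library left out. None of the 6 was called, and 1 had an unadjusted p under 0.05 as lower (Xylt1, limma), against 13.0% of all tested genes. Xylt1, a xylosyltransferase gene (chr7:117380979-117673580, + strand, mm10), had 1183 and 870 normalized counts in the libraries labeled KO, against 1593 and 1389 in control libraries. The groups did not overlap, and the mean differed by -31.2% (log2 fold change -0.55, SE 0.16, 95% interval -0.91 to -0.19, adjusted p = 0.0997, limma). Without replicate 2 labeled KO its log2 fold change was -0.33 (adjusted p = 0.351). Xylt2, its paralog, had 738 and 788 normalized counts in the libraries labeled KO, against 927 and 803 in controls (log2 fold change -0.18, adjusted p = 0.457, limma). Xylt1 had more normalized counts in every library, but its exons are longer (9651 bases, against 3979 for Xylt2). In TPM, Xylt2 was the larger source of xylosyltransferase transcripts in every library. It took 60.2% and 68.7% of the summed TPM of both genes in the libraries labeled KO, against 58.5% and 58.4% in controls.

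The remaining linker genes lay close together in all libraries. B4galt7 and B3galt6 encode the galactosyltransferases, B3gat3 the glucuronosyltransferase and Fam20b the kinase that phosphorylates the xylose. Fam20b had 2822 and 2959 normalized counts in the libraries labeled KO, against 2936 and 3076 in control libraries, and B3gat3 had 1063 and 1093, against 1175 and 1072. The log2 fold changes of these 4 genes were -0.08 to -0.06, and the 95% intervals reached from -0.48 (B3galt6) to 0.34 (B3galt6). The linker is shared with chondroitin sulfate, so these genes are not specific to heparan sulfate.

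Genes for chain polymerization were among the most abundant. Ext1 and Ext2 encode the subunits of the heparan sulfate polymerase, and Extl3 the enzyme that adds the first N-acetylglucosamine. Ext1 had 8534 and 7206 normalized counts in the libraries labeled KO, against 6788 and 6695 in controls. The first library labeled KO stood highest and the groups did not overlap, but the difference did not pass the test (log2 fold change 0.22, SE 0.10, 95% interval -0.02 to 0.45, adjusted p = 0.264, limma). Ext2 had 3685 and 3704 normalized counts in the libraries labeled KO, against 3705 and 3586 in controls. Its groups overlapped, and its 95% interval for the log2 fold change was -0.18 to 0.22. Extl3 had 4371 and 4093 normalized counts in the libraries labeled KO, against 4331 and 4209 in controls, and its interval was -0.22 to 0.19.

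Extl2 had the smallest adjusted p of the genes that were higher. It encodes a transferase reported to add N-acetylglucosamine to the phosphorylated linker and so to stop chain growth. Extl2 (chr3:116007462-116029017, + strand) had 914 and 1034 normalized counts in the libraries labeled KO, against 666 and 665 in control libraries. Both control values lay well below both values of the libraries labeled KO, and the mean was 46.4% higher. The difference missed the threshold narrowly (log2 fold change 0.55, SE 0.12, 95% interval 0.27 to 0.82, adjusted p = 0.0514, limma). It passed without control replicate 1 (adjusted p = 0.0399) or control replicate 2 (adjusted p = 0.0308), and not without replicate 1 (0.202) or replicate 2 (0.238) labeled KO. Extl1, a low gene of the same family, had 54.3 and 54.5 normalized counts in the libraries labeled KO, against 103 and 70.1 in controls (adjusted p = 0.239, limma). In shares of the summed TPM of the 5 EXT and EXTL genes, Extl2 held 10.4% and 12.6% in the libraries labeled KO, against 8.48% and 8.68% in controls.

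N-deacetylase/N-sulfotransferases remove acetyl groups from N-acetylglucosamine and put sulfate in their place, which opens the chain to the later sulfations. None of the 4 NDST genes was called, none had an unadjusted p under 0.05 (limma) and none was called by DESeq2, and the groups of all 4 overlapped. Ndst1, the main family member here, had 6468 and 6139 normalized counts in the libraries labeled KO, against 6412 and 6370 in control libraries. Its log2 fold change was -0.02 with a 95% interval of -0.22 to 0.18, the narrowest of the 31 genes. Ndst2 had 1218 and 993 normalized counts in the libraries labeled KO, against 911 and 1146 in controls, so that each group had 1 high and 1 low library. Ndst3 and Ndst4 were low, at means of 2.21 and 0.531 TPM, and for both of them control replicate 1 stood highest, at 318 and 90.5 normalized counts.

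Glce encodes the epimerase that turns glucuronic acid into iduronic acid, and Hs2st1 the 2-O-sulfotransferase that acts mainly on iduronic acid. Glce (chr9:62057248-62122655, - strand) had 1942 and 1963 normalized counts in the libraries labeled KO, against 2372 and 2456 in control libraries. Replicates of a group lay close together and the groups were apart, but the call was not reached (log2 fold change -0.31, SE 0.09, 95% interval -0.51 to -0.10, adjusted p = 0.106, limma). Hs2st1 had 3012 and 2880 normalized counts in the libraries labeled KO, against 2797 and 2735 in controls. The log2 fold change of Hs2st1 was 0.09, with a 95% interval of -0.11 to 0.30.

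The 6-O-sulfotransferases add the sulfate that SULF enzymes later remove. Hs6st1, the abundant family member, had 6485 and 4746 normalized counts in the libraries labeled KO, against 4607 and 5297 in control libraries. The groups overlapped, with 1 library labeled KO highest and the other between the controls (log2 fold change 0.17, 95% interval -0.20 to 0.53). Hs6st2 had 747 and 731 normalized counts in the libraries labeled KO, against 895 and 879 in controls. The groups of Hs6st2 were apart by more than the difference between replicates, without reaching the threshold (log2 fold change -0.26, SE 0.11, adjusted p = 0.223, limma). Hs6st3, the lowest of the family, had 18.5 and 22.3 normalized counts in the libraries labeled KO, against 32.8 and 30.4 in controls, from 17 to 46 reads per library.

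Among the steps of the pathway, the genes for 3-O-sulfotransferases had the widest range of log2 fold changes, -1.12 to 0.66. These enzymes add a rare sulfate late in synthesis: the product of Hs3st1 makes the antithrombin-binding site of heparin, while those of Hs3st3a1 and Hs3st3b1 make sites known for binding a herpes virus glycoprotein. Of the 7 genes 6 had negative log2 fold changes (against 52.8% of all tested genes), with a median of -0.59, and Hs3st1 had a positive one. None of the 7 was called by limma. An unadjusted p under 0.05 was found for 3 as lower and 1 as higher (limma), against 13.0% and 8.41% of all tested genes. All but Hs3st1 and Hs3st3b1 averaged under 5 TPM. The median log2 fold change of the 11 enzyme genes at that low level was also -0.59.

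The 2 genes of the Hs3st3 pair are near copies over the part that encodes the sulfotransferase, which bears on how their reads were counted. Their coding sequences aligned without gaps over 771 bases, of which 18 differed (97.67% identical), and the longest identical stretch was 401 bases. Of the 50-base windows of each gene's transcripts, the pair shared 416, which is 10.69% for Hs3st3a1 and 8.556% for Hs3st3b1. The 120 bases shown here, from GENCODE mouse release M21 transcripts of chromosome 11 (bases 1319 to 1438 of the Hs3st3a1 transcript and 981 to 1100 of the Hs3st3b1 transcript, 5′ to 3′), hold a single difference, in capitals.
Hs3st3a1: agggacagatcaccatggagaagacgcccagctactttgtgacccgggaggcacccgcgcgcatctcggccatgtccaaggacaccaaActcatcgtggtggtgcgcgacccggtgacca
Hs3st3b1: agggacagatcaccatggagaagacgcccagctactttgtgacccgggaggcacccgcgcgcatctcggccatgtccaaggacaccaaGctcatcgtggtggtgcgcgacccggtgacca
Reads within such a stretch fit both genes equally well. Hs3st3a1 also shared 1247 of its 50-base windows (32.06%) with transcripts of another gene, F930015N05Rik. Both strands were searched, as the library kit did not mark strand. The position and strand of F930015N05Rik are not given here. With both partners, 42.75% of the windows of Hs3st3a1 were shared with another gene, the largest share of the 31 genes, against 8.556% for Hs3st3b1. The values of this pair are uncertain for this reason, by an amount that was not tested. The level of F930015N05Rik is not analysed here.

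Hs3st3a1 (chr11:64435332-64522841, + strand) had 106 and 120 normalized counts in the libraries labeled KO, against 227 and 184 in control libraries. The groups were apart and the mean differed by -44.9%, with an adjusted p above the threshold (log2 fold change -0.85, SE 0.21, 95% interval -1.33 to -0.37, adjusted p = 0.0683, limma). Hs3st3a1 passed the test without control replicate 2 (adjusted p = 0.0355), and not without control replicate 1 (0.156) or without replicate 1 (0.316) or replicate 2 (0.132) labeled KO. Hs3st3b1 (chr11:63885792-63922290, - strand) had 533 and 566 normalized counts in the libraries labeled KO, against 751 and 626 in controls (log2 fold change -0.32, SE 0.14, adjusted p = 0.231, limma). Both genes of the pair were thus lowest in the libraries labeled KO. The difference between their fold changes was not tested, and the ratio of Hs3st3b1 to Hs3st3a1 in TPM was 4.02 and 3.78 in the libraries labeled KO, against 2.65 and 2.73 in controls.

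Hs3st1 was the most abundant gene of the family (chr5:39613935-39755475, - strand). It had 565 and 829 normalized counts in the libraries labeled KO, against 405 and 463 in control libraries. Both libraries labeled KO lay above both controls, while they differed from each other by more than the controls did (log2 fold change 0.66, SE 0.19, 95% interval 0.22 to 1.10, adjusted p = 0.105, limma). Without replicate 2 labeled KO the log2 fold change of Hs3st1 was 0.38 (adjusted p = 0.401), and without replicate 1 labeled KO it was 0.94 (adjusted p = 0.146). Hs3st4 (chr7:123982869-124398989, + strand) had the lowest fold of all 31 genes. It had 31.5 and 44.6 normalized counts in the libraries labeled KO, against 88.3 and 77.4 in controls (log2 fold change -1.12, SE 0.29, 95% interval -1.79 to -0.45, adjusted p = 0.0773, limma). Hs3st2, Hs3st5 and Hs3st6 had 6.51 to 49.2 normalized counts, and Hs3st2 rested on 6 and 12 reads in the libraries labeled KO, against 27 and 15 in controls.

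Shares of the family's transcripts differed between the groups in these 4 libraries, though none of the 7 genes was called by limma. Hs3st1 made up 60.5% and 66.2% of the summed TPM of the 7 genes in the libraries labeled KO, against 40.3% and 46.9% in control libraries. Hs3st3b1 made up 25.9% and 20.5% in the libraries labeled KO, against 34.0% and 28.8% in controls, and Hs3st3a1 6.46% and 5.44%, against 12.8% and 10.6%. The groups did not overlap for any of these shares. With 2 libraries a group this is common: for normalized counts, 28.9% of all tested genes had no overlap as lower and 24.7% as higher. Shares of 1 sum are not independent of each other, and no test of them was made. The part of other cell types in these shares was not tested either. The sum itself was 39.3 and 53.1 TPM in the libraries labeled KO, against 44.2 and 44.5 TPM in controls, so that the groups overlapped.

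**Figure D3:**
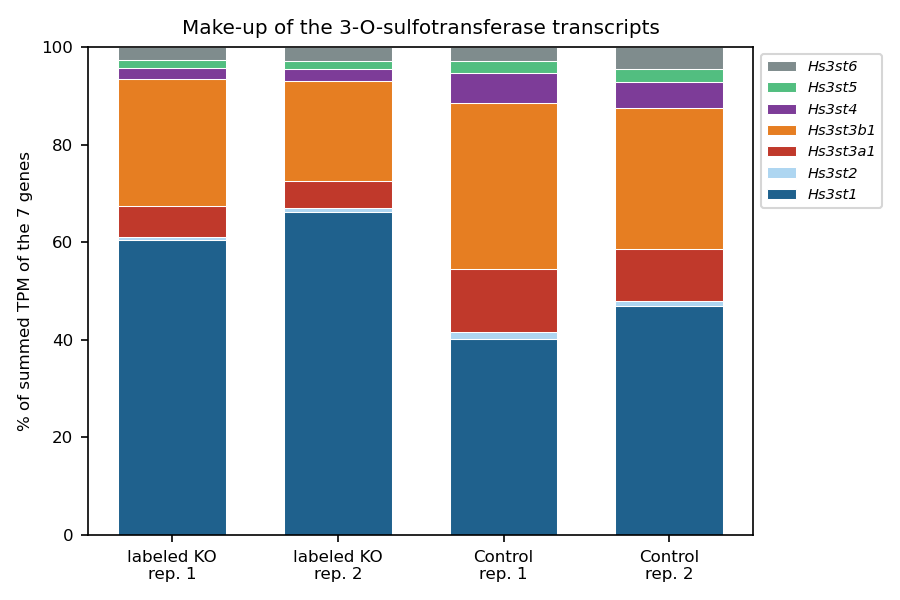
Share of each of the 7 genes for 3-O-sulfotransferases in their summed TPM, with 1 stacked bar per library, libraries labeled KO on the left. Hs3st1 (blue, at the base) takes 60.5% and 66.2% in the libraries labeled KO, against 40.3% and 46.9% in controls, and the segments of Hs3st3b1, Hs3st3a1 and Hs3st4 are smaller.

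The extracellular enzymes included the called gene. Sulf1 and Sulf2 encode endosulfatases that remove 6-O-sulfates from finished chains and so change the binding of growth factors. Sulf1 (ENSMUSG00000016918, chr1:12692277-12861192, + strand) had 2405 and 2527 normalized counts in the libraries labeled KO, against 3744 and 3242 in control libraries, or 20.0 and 21.2 TPM against 32.6 and 28.9 TPM. Both libraries labeled KO lay below both controls by more than replicates differed. The mean of Sulf1 differed by -29.4% (log2 fold change -0.50, SE 0.10, 95% interval -0.73 to -0.26, adjusted p = 0.0453, limma). The call rested on a narrow margin: the adjusted p of Sulf1 was 0.228 without replicate 1 labeled KO, 0.0925 without replicate 2 labeled KO, 0.0661 without control replicate 1 and 0.00791 without control replicate 2. In bulk RNA, fewer cells of a type and less RNA per cell cannot be told apart.

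Sulf2 (chr2:166073089-166155663, - strand) had 8872 and 8837 normalized counts in the libraries labeled KO, against 11231 and 10262 in control libraries. Sulf2 was lower in both libraries labeled KO, and its mean differed by -17.6% (log2 fold change -0.28, SE 0.09, 95% interval -0.48 to -0.08, adjusted p = 0.123, limma). Exons of Sulf2 overlap those of the antisense gene Ncoa3 by 154 bases, 2.62% of the exon length of Sulf2. Together both sulfatase genes came to 162 and 163 TPM in the libraries labeled KO, against 220 and 205 TPM in controls, with Sulf2 holding 85.2% to 87.7% of the sum in every library. Heparanase genes were low. Hpse, which encodes heparanase, had 58.6 and 81.8 normalized counts in the libraries labeled KO, against 67.7 and 63.8 in controls, and Hpse2, which encodes a relative without that activity, had 86.9 and 128, against 159 and 110.

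Transcripts of other cell types were also lower in the libraries labeled KO. All 15 fibroblast and mesenchyme markers had negative log2 fold changes, with a median of -0.71, and 5 were called lower (Col1a1, Crabp1, Osr2, Twist1 and Twist2). Their summed level was 1625 and 1909 TPM in the libraries labeled KO, against 3272 and 2637 TPM in control libraries, and none of them was at 0. Of 10 skeletal muscle markers 5 were called lower, with sums of 132 and 141 TPM, against 260 and 281 TPM, and of 6 germ cell markers 3 were called lower, with sums of 180 and 216 TPM, against 391 and 528 TPM. Lymphatic markers went the other way: 4 of the 9 tested (Flt4, Mmrn1, Nrp2 and Pdpn) were called higher, with sums over the list of 3713 and 3548 TPM in the libraries labeled KO, against 2058 and 2772 TPM in controls. Of 8 pan-endothelial markers 3 were called higher. No marker was called among 8 haematopoietic, 6 neural and glial, and 7 tested epithelial and mesothelial ones. Of these lists, 0, 4 and 5 genes had an unadjusted p under 0.05 (limma), all as lower, and DESeq2 called 0, 1 and 2 lower. Over all tested genes, 13.0% had such a p as lower, and DESeq2 called 4.32% lower. The part of these differences in the values of Sulf1 and of the other enzyme genes that were lower, such as Xylt1, Hs3st3a1 and Hs3st4, was not tested. Nor was their part in the values of enzyme genes that were higher, such as Extl2 and Hs3st1.

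The neighboring steps of the pathway gave few calls by limma. Over all tested genes 1.75% were called lower and 1.13% higher. Among 11 genes for precursor supply and transport 1 was called higher, Impad1, which encodes the Golgi phosphatase that clears the by-product of sulfation. It had 8143 and 8110 normalized counts in the libraries labeled KO, against 6283 and 5924 in control libraries (log2 fold change 0.41, SE 0.09, adjusted p = 0.0458, limma). Impad1 was not called in any of the 4 fits that left out 1 library. Among 10 genes for lysosomal breakdown of heparan sulfate and 15 tested genes for chondroitin and dermatan sulfate enzymes none was called in either direction by limma. In the lysosomal list 0 genes had an unadjusted p under 0.05 as lower and 1 as higher, and DESeq2 called none. In the chondroitin and dermatan sulfate list 3 had one as lower and 2 as higher, and DESeq2 called 0 lower and 2 higher. Over all tested genes, 13.0% had an unadjusted p under 0.05 as lower and 8.41% as higher (limma). DESeq2 called 4.32% of them lower and 3.4% higher. The medians of the log2 fold changes were -0.01 for precursor supply, 0.08 for lysosomal breakdown and -0.04 for chondroitin and dermatan sulfate, near the -0.02 of all tested genes.

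Core proteins, which carry the chains, had the lowest median of the pathway lists. Of 13 genes, 12 had negative log2 fold changes (against 52.8% of all tested genes), with a median of -0.31. Of the 13, 3 were called lower, against 1.75% of all tested genes. All 3 are genes for glypicans, which are anchored to the cell surface by lipid. Gpc1 had 1202 and 1275 normalized counts in the libraries labeled KO, against 2040 and 1836 in control libraries (log2 fold change -0.64, adjusted p = 0.0329, limma). Gpc4 had 611 and 757, against 1252 and 1114 (log2 fold change -0.79, adjusted p = 0.0333, limma), and Gpc3 had 8599 and 10218, against 15622 and 13099 (log2 fold change -0.61, adjusted p = 0.0434, limma). The groups of these 3 genes did not overlap. The part of other cell types in the values of the core protein genes was not tested. Over the 4 pathway lists together, 3 genes were called lower and 1 higher with all libraries, 0 and 0 without replicate 1 labeled KO, 2 and 0 without replicate 2 labeled KO, 3 and 1 without control replicate 1, and 6 and 0 without control replicate 2. The genes differed between these fits: without control replicate 1 those lower were Gpc1, Gpc4 and Sdc4 and the gene higher was Slc35d2, without replicate 2 labeled KO those lower were Gpc3 and Gpc4, and without control replicate 2 they were Gpc1, Gpc3, Gpc4, Gpc6, Papss2 and Sdc2. The exception to the negative folds was Col18a1, a basement membrane collagen with heparan sulfate chains. It had 82617 and 69608 normalized counts in the libraries labeled KO, against 52630 and 63610 in controls (adjusted p = 0.121, limma). With all libraries, DESeq2 called Col18a1 higher, and Gpc1, Gpc3, Gpc4, Gpc6 and Sdc2 lower. These were 1 and 5 of the 13 genes, against 3.4% of all tested genes called higher and 4.32% called lower by DESeq2.

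**Figure D4:**
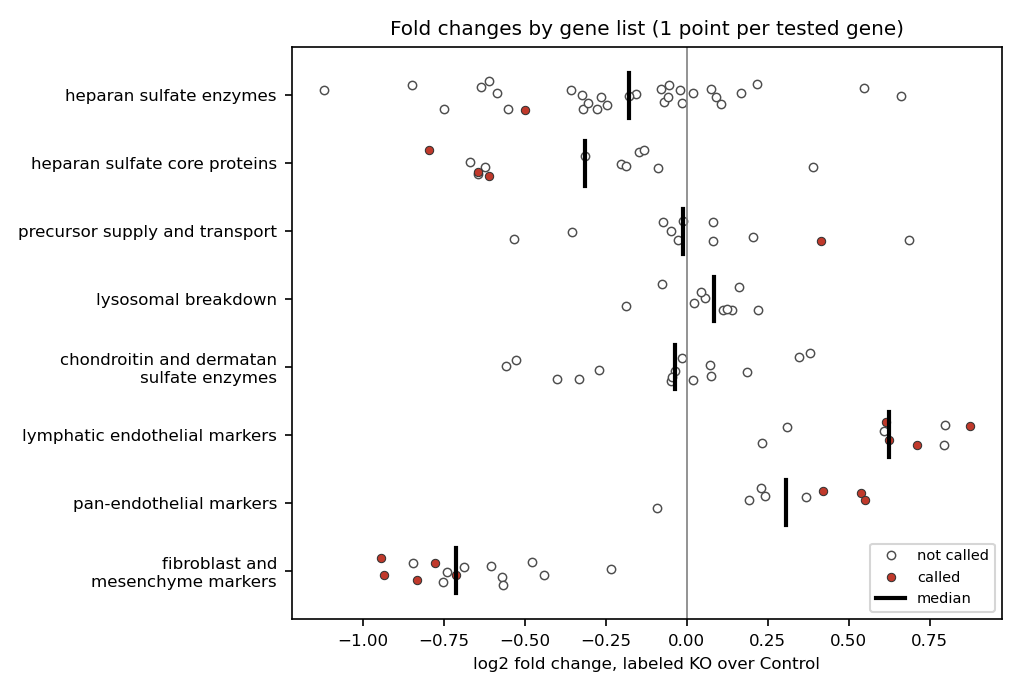
Log2 fold change, libraries labeled KO over control, with 1 point per tested gene in 8 gene lists, called genes in red and the median as a black bar. The heparan sulfate enzymes center at -0.18 and the core proteins at -0.31, between the fibroblast and mesenchyme markers at -0.71 and the lymphatic markers at 0.62.

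The calls among the enzyme genes shifted with the test. DESeq2 on the recovered whole reads called Sulf1 (adjusted p = 0.00353), Xylt1 (0.0359) and Hs3st3a1 (0.0393) lower and Extl2 (0.00561) and Hs3st1 (0.0235) higher. These were 9.68% and 6.45% of the 31 genes, against 4.32% of all tested genes called lower and 3.4% called higher by DESeq2. The quasi-likelihood test of edgeR called none of the 31, with Sulf1 at an adjusted p of 0.05001, just above the threshold. Sulf1 kept its direction in each of these fits, at log2 fold changes of -0.49 in both.

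**Figure D5:**
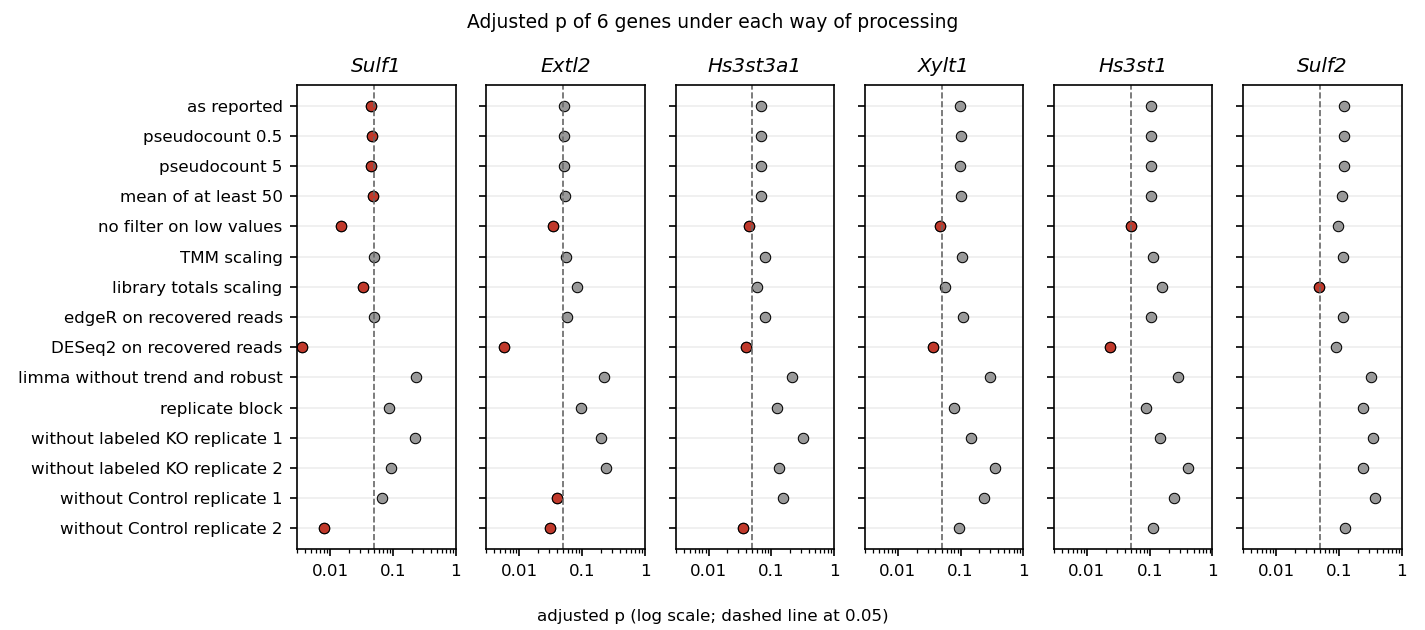
Adjusted p (log scale) of 6 enzyme genes under each way of processing, red where it is under 0.05 (dashed line). Sulf1 and Extl2 lie on either side of the line as the settings change, and Sulf2 passes only when libraries are scaled by their totals.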

How the data were processed

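By the study's methods, the authors used a TruSeq V2 kit (a protocol without strand information) and an Illumina HiSeq instrument, aligned reads to mm10 with STAR and counted them per gene with featureCounts. For these tools, the version is not given in the sources used here. Values deposited by the authors are a signal, namely read counts divided by DESeq2 size factors. Multiplied by each library's size factor (0.921 and 0.807 for replicates 1 and 2 labeled KO, 1.40 and 0.955 for control replicates 1 and 2), 100% of values came to whole reads within 0.001 reads, so depth is known. Every value column was assigned to a library. Of 55385 gene IDs, 55144 matched GENCODE mouse release M21, which gave symbols, mm10 coordinates and exon lengths for TPM, and 241 did not.

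For the comparison, limma 3.58.1 with its trend and robust options was fitted in R 4.3.3 to the log2 of each normalized count plus 1, for genes averaging 10 or more. Fold changes on this scale understate changes of low genes. On recovered reads edgeR 4.0.16 called 215 genes lower and 228 higher, DESeq2 1.42.0 called 842 and 663, and limma 341 and 221. DESeq2 gave 4 of the 31 genes no adjusted p. The fits were first tested on simulated data. Named genes are all 31 enzymes, Osr1, Pdpn, Pecam1 and, per other list, up to 3 called genes with the smallest adjusted p per direction. Called fibroblast and lymphatic markers beyond these, Col18a1 and the pathway genes called only with a library left out were named after their values were seen. The enzymes, the lists and the tests were chosen with earlier results of these data known. Alternatives were other scalings, tests, filters, pseudocounts and thresholds, a replicate block and each library left out. Figures were drawn with matplotlib 3.10.9.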

Additional observations from a re-analysis of the deposited data

How the results depend on the processing

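The calls among the enzyme genes (1 lower, 0 higher) and among the other pathway genes (3 lower, 1 higher) stood near the threshold, with 2 libraries a group. Depth limits the lowest genes: Hs3st2 rested on 6 to 27 reads per library, and 6 reads have an exact 95% Poisson interval of 2.20 to 13.1, which covers counting error only. Among the enzyme genes, 0 were called lower with TMM scaling, with edgeR, with limma without its trend and robust options and with a log2 fold change of at least 1, 2 with library totals (Sulf1 and Sulf2), 3 with DESeq2 and 3 with no filter on low values, and 4 at an adjusted p under 0.1. Called higher were 2 with DESeq2 and 2 with no filter, and 1 at an adjusted p under 0.1. The number of calls over all tested genes also rose with these settings, from 341 lower and 221 higher of 19479 genes. It was 842 lower and 663 higher with DESeq2, and 916 and 572 at an adjusted p under 0.1. With no filter it was 695 lower and 425 higher of 37634 genes. Among the other pathway genes, 2 were called lower with TMM scaling and with edgeR, 5 with DESeq2, and 0 without the trend and robust options or at a log2 fold change of at least 1. Called higher there were 5 with DESeq2, 3 at an adjusted p under 0.1 and 0 with those last settings. Pseudocounts of 0.5 and 5, a mean of at least 50, no fold threshold and no TPM filter left these counts as they were. Leaving out 1 library gave 0 to 2 enzyme genes lower and 0 to 1 higher, and 0 to 6 other pathway genes lower and 0 to 1 higher. A group left with 1 library is then assumed to vary like the other.

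With the replicate number as a block, 0 enzyme genes and 0 other pathway genes were called in either direction, and the calls over all tested genes were 96 lower and 29 higher, against 341 and 221 without it. The replicate numbers share no stated litter or day, and same-numbered libraries deviated in opposite directions (r = -0.118 over 19479 genes), so the numbers are not taken to pair the libraries. A crossed pairing, chosen after seeing the data, called 2 enzyme genes lower and 1 higher, and 5 other pathway genes lower and 4 higher. Over all tested genes the crossed pairing called 766 lower and 516 higher.

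Over all tested genes, limma without its trend and robust options called 0, leaving out replicate 1 labeled KO left 12 lower and 13 higher, and leaving out control replicate 2 gave 1069 and 391. Of the single genes, Ext2 changed sign with library totals (-0.053) and Extl3 with DESeq2 (0.0033). With 1 library left out, signs changed for 11 genes, whose log2 fold changes ranged from -0.18 to 0.043 (B3galt6), -0.12 to 0.0079 (B3gat3), -0.0041 to 0.043 (Ext2), -0.061 to 0.034 (Extl3), -0.16 to 0.31 (Hpse), -0.54 to 0.047 (Hs3st6), -0.058 to 0.39 (Hs6st1), -0.058 to 0.017 (Ndst1), -0.059 to 0.27 (Ndst2), -0.71 to 0.00029 (Ndst3) and -0.61 to 0.29 (Ndst4). The cause of these changes was not tested.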
